A study of Mus musculus with 8 samples.

Results

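The 30 genes described here cover how a macrophage makes, senses, moves and stores cholesterol. They comprise 19 enzymes of cholesterol and isoprenoid synthesis, 6 genes for the transcription factor SREBP-2 and the proteins that hold or cut it, and 5 genes of sterol transport and storage. Each gene was found by its name among the array's probes that are not controls, and where several probes carried the name the brightest over the 8 arrays stood for the gene. All 30 were measured and were among the 19259 genes tested, and each was well above background on 8 of 8 arrays with 0 saturated spots. Sc4mol is the array's older name for the gene now called Msmo1.

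The study asked which genes respond in mouse bone marrow-derived macrophages, which are matured in culture out of bone marrow precursors, when small RNAs cut from the Y RNAs are targeted. Y RNAs are short, do not code for protein, and are carried by the proteins Ro60 and La. Macrophages of male C57BL/6J mice received siRNA against the Y RNA terminal loop (4 arrays) or with a control siRNA (4 arrays). The replicate numbers 1 to 4 stand for 4 mice, so each mouse gave 1 array of each kind. No genetic change is named for either group, and the labels used here give neither the age of the mice nor the sequence, dose or duration of the siRNA. RNA integrity was scored 10 in all samples but control siRNA replicate 4, which had 8.

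Cells build cholesterol from acetyl-CoA by way of mevalonate, the isoprenoid diphosphates, squalene and lanosterol. When sterols are plentiful, SREBP-2 is held in the endoplasmic reticulum by its escort SCAP and the INSIG proteins, and when they are scarce it is carried to the Golgi, cut by the proteases of Mbtps1 and Mbtps2, and its freed part turns on genes of synthesis and uptake. Macrophages also take in much cholesterol with lipoproteins and dead cells, which leaves the lysosome through NPC2 and NPC1 and is stored in the cytoplasm as cholesteryl ester.

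SREBP-2 binds sterol regulatory elements in promoters together with the factors NF-Y and Sp1, so the promoters of 6 members are printed first. Of the members searched, Hmgcs1 is the one whose window holds the sterol regulatory element in the only full spelling searched, TCACNCCAC. Mvk, Idi1 and Nsdhl are among the enzymes whose levels moved closely with the rest of the route (r of 0.98, 0.95 and 0.96 to the mean of the others, for Nsdhl at 1 of its 2 probes). Ggps1 and Insig1 are members whose levels ran the other way, for Ggps1 at 1 of its 3 probes. The sequences are RefSeq's for GRCm38.p6, from 250 bases before the annotated start to 50 after it, and are written along the gene's own strand. The windows lie at chr13:119690101-119690400 on the + strand (Hmgcs1), chr5:114444019-114444318 on the + strand (Mvk), chr13:8885356-8885655 on the + strand (Idi1), chrX:72918271-72918570 on the + strand (Nsdhl), chr13:14063439-14063738 on the - strand (Ggps1) and chr5:28071162-28071461 on the + strand (Insig1). Capitals mark the NF-Y box CCAAT and the core of the sterol regulatory element, CACNCCAC, on either strand, so that ATTGG and GTGGCGTG in capitals are matches on the opposite strand.
Hmgcs1: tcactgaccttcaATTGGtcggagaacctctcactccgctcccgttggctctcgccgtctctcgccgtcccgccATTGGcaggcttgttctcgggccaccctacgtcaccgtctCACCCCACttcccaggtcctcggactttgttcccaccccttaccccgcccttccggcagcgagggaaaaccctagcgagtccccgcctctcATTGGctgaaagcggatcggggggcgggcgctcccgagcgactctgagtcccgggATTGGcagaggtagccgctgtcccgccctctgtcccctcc
Mvk: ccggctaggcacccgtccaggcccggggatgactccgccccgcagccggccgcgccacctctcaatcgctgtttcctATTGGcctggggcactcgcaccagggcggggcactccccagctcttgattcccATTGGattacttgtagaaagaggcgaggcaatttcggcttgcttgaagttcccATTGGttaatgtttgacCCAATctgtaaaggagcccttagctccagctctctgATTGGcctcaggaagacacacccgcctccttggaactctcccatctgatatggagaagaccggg
Idi1: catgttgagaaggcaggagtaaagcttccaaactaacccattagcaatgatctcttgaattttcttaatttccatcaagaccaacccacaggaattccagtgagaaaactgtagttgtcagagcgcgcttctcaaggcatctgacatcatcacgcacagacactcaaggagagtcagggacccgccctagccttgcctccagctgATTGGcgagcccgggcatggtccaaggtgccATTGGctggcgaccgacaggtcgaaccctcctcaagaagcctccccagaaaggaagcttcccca
Nsdhl: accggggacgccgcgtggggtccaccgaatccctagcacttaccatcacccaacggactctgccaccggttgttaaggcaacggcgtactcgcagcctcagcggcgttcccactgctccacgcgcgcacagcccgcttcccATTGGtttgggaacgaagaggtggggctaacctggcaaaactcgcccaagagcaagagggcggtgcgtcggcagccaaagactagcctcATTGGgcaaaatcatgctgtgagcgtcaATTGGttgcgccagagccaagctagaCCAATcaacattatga
Ggps1: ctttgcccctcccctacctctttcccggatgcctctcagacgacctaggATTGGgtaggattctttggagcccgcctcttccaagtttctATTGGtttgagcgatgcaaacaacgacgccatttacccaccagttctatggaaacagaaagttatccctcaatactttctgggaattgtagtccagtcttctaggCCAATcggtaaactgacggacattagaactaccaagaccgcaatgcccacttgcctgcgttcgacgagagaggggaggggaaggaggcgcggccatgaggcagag
Insig1: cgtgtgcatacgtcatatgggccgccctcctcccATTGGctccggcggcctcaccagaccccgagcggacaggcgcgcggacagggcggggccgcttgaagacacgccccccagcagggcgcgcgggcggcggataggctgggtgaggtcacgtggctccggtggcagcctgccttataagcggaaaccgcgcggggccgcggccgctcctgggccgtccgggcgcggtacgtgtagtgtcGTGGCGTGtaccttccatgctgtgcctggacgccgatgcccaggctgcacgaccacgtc

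On either strand, the full element TCACNCCAC was found in 1 of the 25 members whose promoter windows were searched and in 1.24% of all 32851 windows. That member was Hmgcs1, where the first base of the element lies at -137 from the start. The shorter core CACNCCAC, which every full element also holds, was found in Acat2, Hmgcs1 and Insig1 and in 6.24% of all windows. The NF-Y box CCAAT was found in 21 of 25 members, which splits into 15 of 16 synthesis enzymes and 6 of 9 other members, against 37.4% of all windows. Mvk holds 5 of these boxes, Hmgcs1 and Nsdhl 4 each, Ggps1 3, Idi1 2 and Insig1 1. The GC box GGGCGG, a sequence Sp1 can bind, was found in 21 of 25 members and 35.7% of windows, and the E-box CACGTG in 6 of 25 members and 7.15% of windows. Dhcr7, Insig2, Pmvk and Scap have several windows and count as holding a motif where any of theirs does. The 25 members have 31 windows, so their counts are per gene while the percentages are per window. This unlike unit favours the members. The promoters of Fdft1, Fdps, Npc1, Sqle and Stard4 were not analysed here. A match is a run of letters and not a shown binding site. Other spellings of the sterol regulatory element were not searched, so its absence from a window was not shown.

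**Figure D1:**
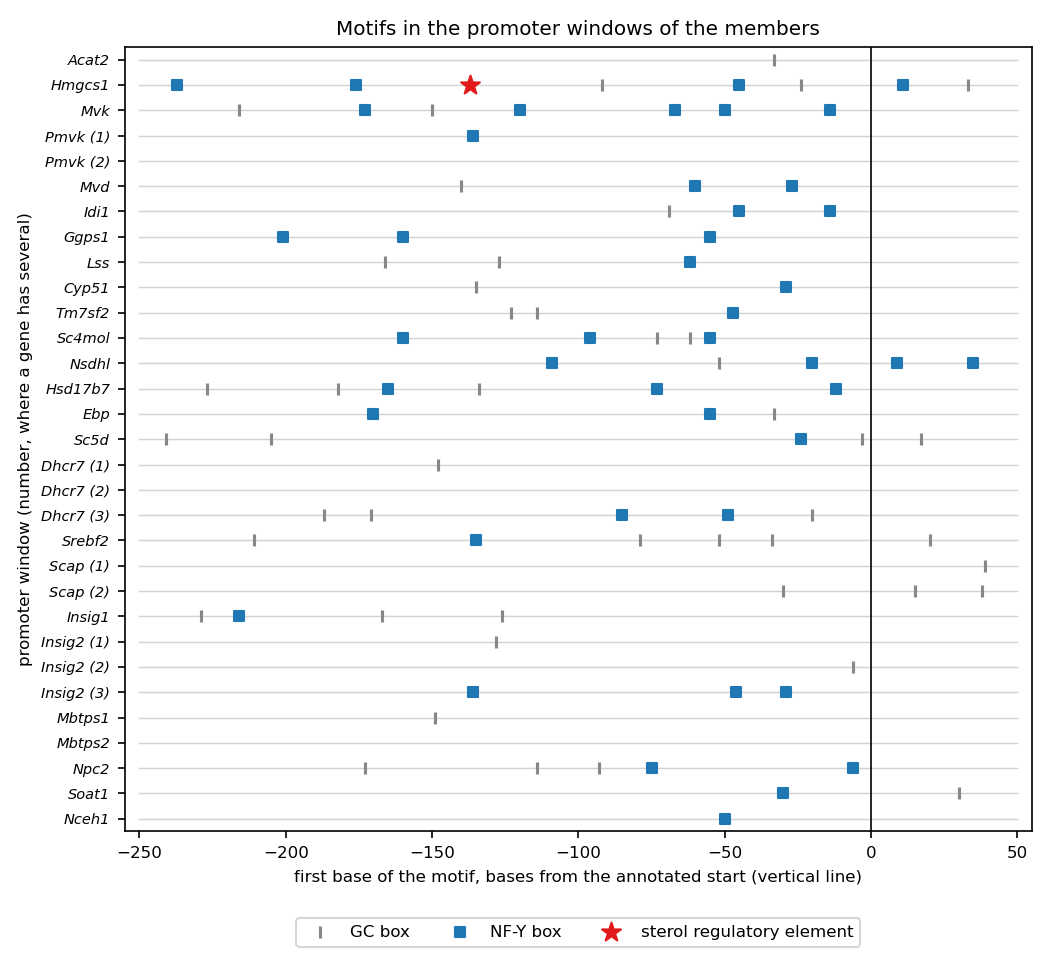
Position of motifs in the promoter windows of the 25 members whose windows were searched (rows, in pathway order). A number follows the name where a gene has several windows. The x axis gives the first base of each motif in bases from the annotated start (vertical line). Blue squares are NF-Y boxes, grey ticks GC boxes and the red star the match to the sterol regulatory element spelled TCACNCCAC, in Hmgcs1.

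Levels are log2 processed signals from which the same array's 75th percentile was subtracted, so that 0 is the signal of that percentile and a step of 1 is a 2-fold change. They compare arrays for 1 gene and not genes with each other. The 75th percentile lay between 9.04 and 9.34 on the log2 scale, with the 2 arrays of mouse 1 lowest, and the correlation between any pair of arrays was 0.989 to 0.997 over the genes tested. All 9 macrophage markers looked for, such as Csf1r and Cd68, were well above background on 8 of 8 arrays, and 0 of 4 erythroid markers were on any. The arrays shared 1 slide. Slide columns 1 and 3 held the Y RNA siRNA samples and columns 2 and 4 those of the control siRNA, so column and siRNA cannot be told apart, while both slide rows held both groups. Each mouse had its own pair of neighbouring positions, the first row holding mice 1 and 2, so differences between mice and between positions on the slide cannot be told apart. The 2 arrays of each mouse deviated together (r from 0.155 to 0.618), so p-values with the mouse as a block are given where they differ in the call.

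The first question was whether the siRNA against the Y RNAs moved these genes. It gave no member a difference that passed: 0 of 30 had an adjusted p under 0.05 in limma (Benjamini-Hochberg over 19259 genes), and the same was true of 0% of all genes. The members' differences, Y RNA siRNA minus control siRNA, ran from -0.13 (Nsdhl) to 0.13 (Sc5d), with a median of 0.0080 against 0.0045 over all genes tested. The mean was higher with the Y RNA siRNA for 16 members and lower for 14, and it was higher for 52.3% of all genes. This split turned on single arrays: it was 9 higher and 21 lower without control siRNA replicate 1, and 21 higher and 9 lower both without Y RNA siRNA replicate 1 and without control siRNA replicate 3, while 51.1%, 49.99% and 50.2% of all genes were higher. Centring the arrays on their medians gave 21 higher and 9 lower among the members and 65.5% higher among all genes. With 4 arrays a group, the fit without a block, which leaves differences between mice in its error, bounded the size of any difference. The members' SEs ran from 0.044 to 0.15 in that fit and from 0.034 to 0.073 with the mouse as a fixed block. SEs of single genes below are without a block unless one is named. Without a block, the 95% interval lay inside a 1.5-fold change either way for 30 of 30 members, as it did for 84.7% of all genes. The interval lay inside a 1.25-fold change for 21 of 30, against 56.4% of all genes.

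Counts by looser rules were close to those over all genes. At an unadjusted p under 0.05, limma picked 1 of 30 members (Npc1) and 3.4% of all genes without a block. With the mouse as a fixed block it picked 3 of 30 (Npc1, Nsdhl and Sc5d) and 9.26% of all genes, none of them at an adjusted p under 0.05. With the mouse as a random block, 0 of 30 members and 0.0571% of all genes, 11 in number, had an adjusted p under 0.05. The difference had the same sign in all 4 mice for 5 of 30 members and for 19.3% of all genes. It was up for Hmgcs1, Pmvk, Sc5d and Npc1 and down for Nsdhl. At their other probes the mean difference had the opposite sign for Pmvk (-0.0036) and Nsdhl (0.035). The groups did not overlap for 1 of 30 members, Npc1, and for 2.43% of all genes. The plot of siRNA differences gives each member's value in every mouse.

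**Figure D2:**
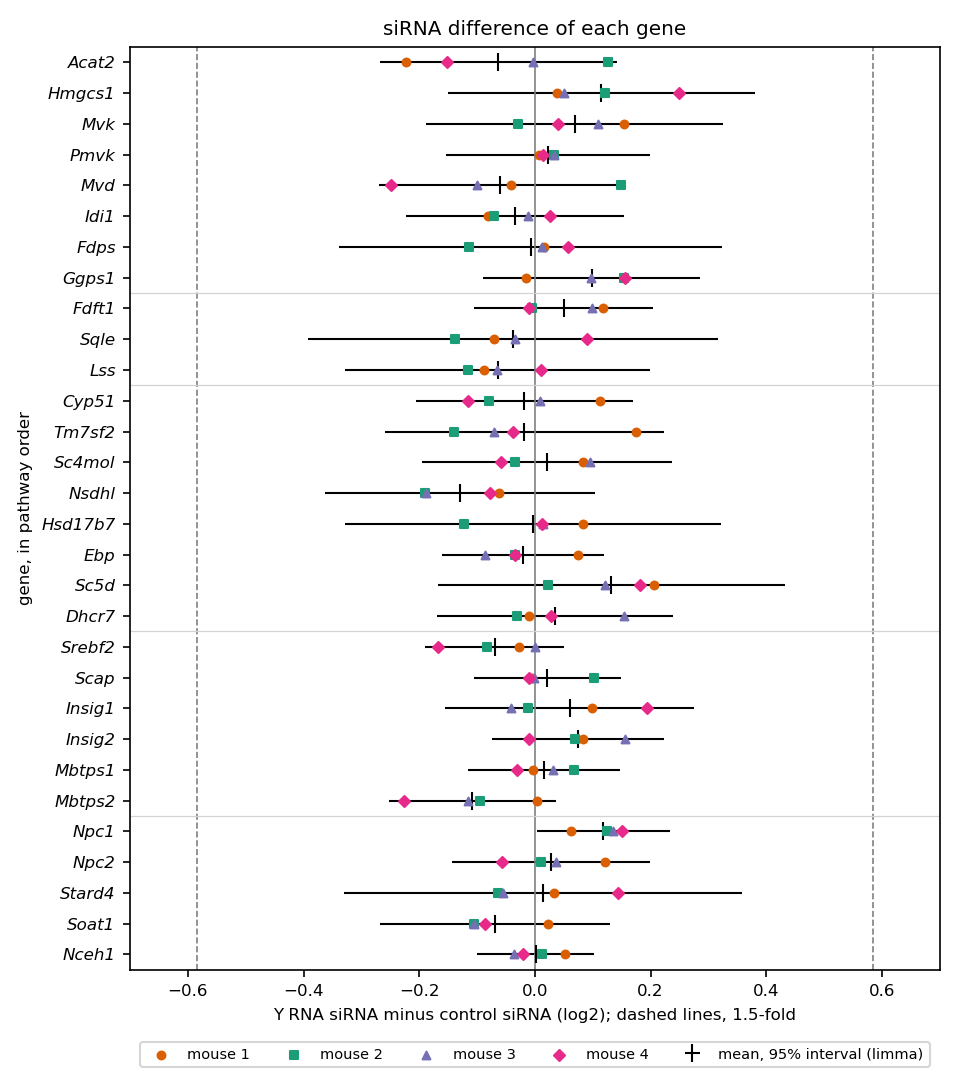
Difference in level, Y RNA siRNA minus control siRNA (log2), for each of the 30 members in pathway order. Coloured symbols are the 4 mice, black ticks the mean of the 4, and black lines limma's 95% interval without a block. All 30 intervals lie inside the dashed lines at a 1.5-fold change, and all but that of Npc1 include 0.

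The second question was how the same genes differed between the macrophages of the 4 mice, each measured on 2 arrays. Most synthesis enzymes were low in mouse 1 and high in mouse 3, with both siRNAs. The mouse mean was lowest in mouse 1 for 16 of 19 synthesis enzymes, against 33.0% of all genes, and highest in mouse 3 for 11 of 19, against 27.4%. The median deviation of the 19 enzymes from their 4-mouse means was -0.18, 0.013, 0.12 and 0.029 in mice 1 to 4, against 0.0084, -0.0071, -0.013 and 0.010 over all genes. On single arrays of mouse 1 the median deviation was -0.18 with the Y RNA siRNA and -0.17 with the control siRNA, and on those of mouse 3 it was 0.13 with the Y RNA siRNA and 0.089 with the control siRNA. In mouse 1, 3 of 19 enzymes lay above their own 8-array mean on the Y RNA siRNA array and 1 of 19 on the control siRNA array.

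These shifts were small, and gene by gene they did not pass. In limma's F test of the 4 mice, with the siRNA in the model, 0 of 30 members had an adjusted p under 0.05, against 4.72% of all genes. The adjusted p was nearest to the threshold for Fdps (0.0504), Sqle (0.0562), Hsd17b7 (0.0599) and Stard4 (0.0602). At an unadjusted p under 0.05 the same limma test picked 14 of 30 members, of which 12 were synthesis enzymes, and 29.7% of all genes. By step these were 5 of 8 in the mevalonate arm, 2 of 3 from squalene to lanosterol, 5 of 8 from lanosterol to cholesterol, 0 of 6 for SREBP-2 and its processing, and 2 of 5 in transport and storage. The count at the adjusted threshold turned on the settings. It was 1 of 30 with quantile normalization (Fdps), where 4.85% of all genes were called, and 3 of 30 (Fdps, Sqle and Stard4) both with median centring, against 4.28% of all genes, and with the authors' deposited table, against 9.66%. It was 4 of 30 with probes above background on all 8 arrays, against 6.78% of genes, 6 of 30 with array weights, against 9.71%, and 10 of 30 with normexp background correction, against 17.2%. Without mouse 2 it was 3 of 30 (Fdps, Sqle and Hsd17b7), against 6.35%. Fdps was among those called under each of these 7 settings, and 9 of the 10 called with normexp were synthesis enzymes.

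**Figure D3:**
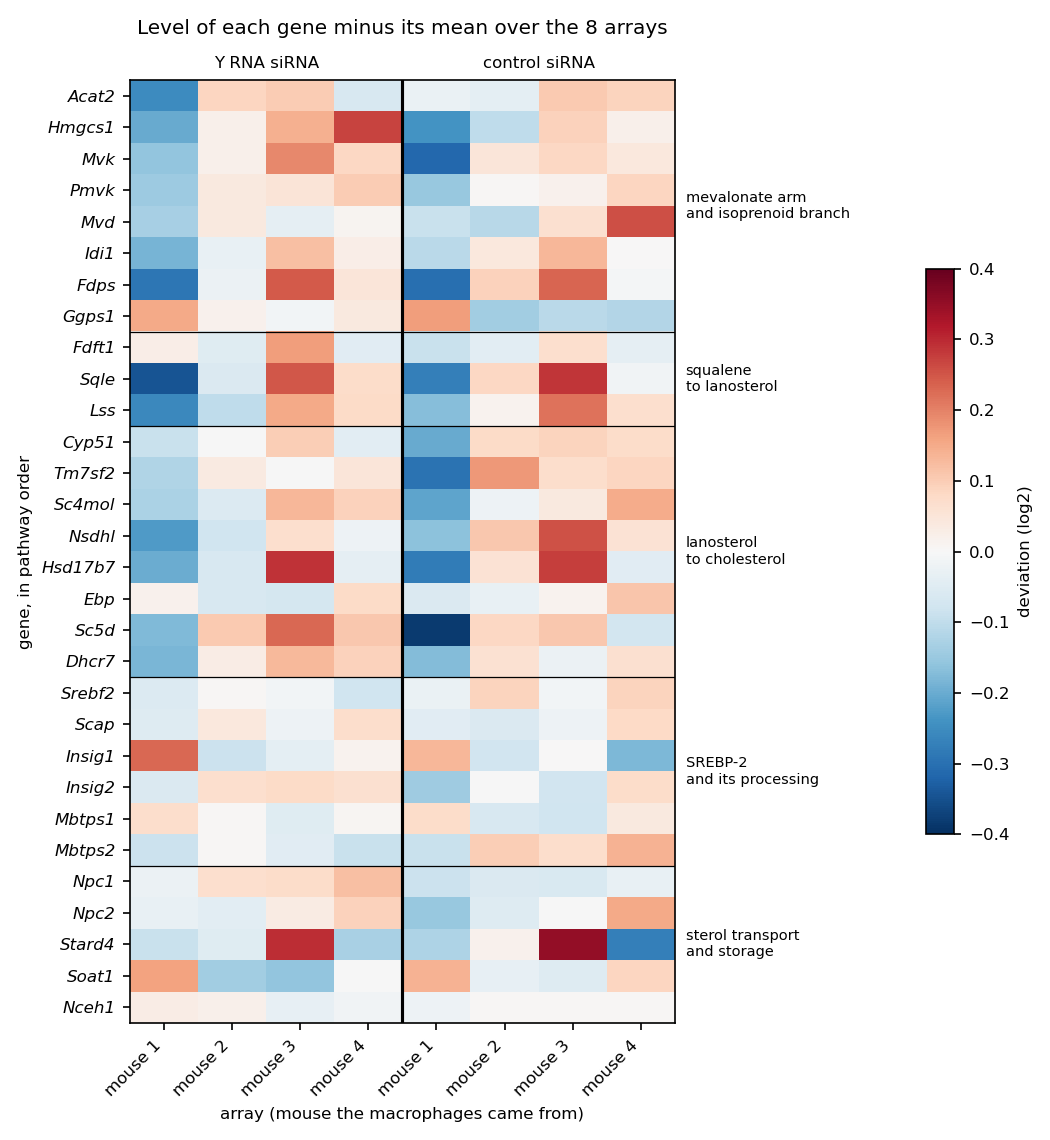
Level of each of the 30 members (rows, in pathway order) minus its mean over the 8 arrays, in log2 units, with the 4 Y RNA siRNA arrays on the left and the 4 control siRNA arrays on the right, by mouse. Blue is below the gene's own mean and red above it. The columns of mouse 1 are blue for most synthesis enzymes in both groups and those of mouse 3 red. Ggps1 (at 1 of its 3 probes), Insig1 and Soat1 are red in mouse 1.

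In the mevalonate arm, Hmgcs1 makes HMG-CoA from acetyl-CoA units. Its probe lies at chr13_random:114793-114852 on mm9, the build of the array's probe positions. Its level was 4.96, 5.18, 5.30 and 5.43 in mice 1 to 4 with the Y RNA siRNA, against 4.92, 5.06, 5.25 and 5.18 with the control siRNA. It was higher with the Y RNA siRNA in 4 of 4 mice, by 0.038 to 0.25, yet the groups overlapped, and the difference of 0.11 ± 0.11 (SE) had an adjusted p of 1.00 in limma. Between mice it ranged over 0.36, lowest in mouse 1 and highest in mouse 4. Its promoter holds the match to TCACNCCAC printed above. Acat2, the thiolase that joins acetyl-CoA units in the cytosol, had -1.58, -1.24, -1.22 and -1.39 in mice 1 to 4 with the Y RNA siRNA, against -1.35, -1.36, -1.22 and -1.23 with the control siRNA, and its difference of -0.063 ± 0.089 had an adjusted p of 1.00 in limma. It was lower with the Y RNA siRNA in 3 of 4 mice and higher in mouse 2.

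Mvk, mevalonate kinase (probe at chr5:114910540-114910599, mm9), had a level of 3.55, 3.72, 3.90 and 3.79 in mice 1 to 4 with the Y RNA siRNA, against 3.39, 3.75, 3.79 and 3.75 with the control siRNA. Both mouse 1 arrays lay below all others, and the mouse means spanned 0.37 (adjusted p = 0.0909, limma's F test), while the siRNA difference was 0.069 ± 0.11 (SE). Its other probe ran alongside over the 8 arrays (r = 0.956). Fdps, farnesyl diphosphate synthase, which makes the last intermediate shared by sterols and isoprenoids (probe at chr3:88897549-88897608, mm9), had 4.75, 5.02, 5.29 and 5.09 with the Y RNA siRNA, against 4.74, 5.13, 5.27 and 5.03 with the control siRNA. Its 2 arrays of a mouse lay close together and its mouse means spanned 0.54, with mouse 1 low and mouse 3 high. The siRNA difference of Fdps was -0.0076 ± 0.14 (SE), the smallest of the mevalonate arm in size.

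Ggps1, which makes the geranylgeranyl diphosphate used to anchor proteins in membranes, leaves the sterol route and ran against it. Its level was 1.83, 1.69, 1.66 and 1.71 in mice 1 to 4 with the Y RNA siRNA, against 1.84, 1.54, 1.57 and 1.56 with the control siRNA. Both mouse 1 arrays were the highest of the 8, and the mean was higher with the Y RNA siRNA in 3 of 4 mice, by 0.098 ± 0.081 (SE) over all (adjusted p = 1.00 in limma). Its other 2 probes did not share that course, with r of 0.38 and 0.0081 to the brightest probe, so the pattern rests on 1 of 3 probes. The other 3 enzymes of the arm, the kinase Pmvk, the decarboxylase Mvd and the isomerase Idi1, had siRNA differences of 0.022, -0.061 and -0.035, and their mouse means spanned 0.24, 0.24 and 0.27, lowest in mouse 1 for each. The other probe of Pmvk followed its brightest one over the 8 arrays (r = 0.964), though its siRNA difference was -0.0036.

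From squalene to lanosterol, Sqle, squalene epoxidase, a control point of the route (probe at chr15:59162688-59162747, mm9), had 3.35, 3.64, 3.94 and 3.77 in mice 1 to 4 with the Y RNA siRNA, against 3.42, 3.77, 3.98 and 3.68 with the control siRNA. Its mouse means spanned 0.58, the widest range of the 30 members, while the siRNA difference was -0.039 ± 0.15 (SE). Sqle was lowest in mouse 1 and highest in mouse 3 in both groups, with mice 2 and 4 in between. Lss, which folds the squalene epoxide into lanosterol, had 0.27, 0.43, 0.68 and 0.60 with the Y RNA siRNA, against 0.35, 0.54, 0.74 and 0.59 with the control siRNA. Its mouse means spanned 0.40 (adjusted p = 0.0648, limma's F test) and its siRNA difference was -0.065 ± 0.11. Fdft1, squalene synthase, the first enzyme committed to sterols, had 2.10, 2.03, 2.24 and 2.03 with the Y RNA siRNA, against 1.99, 2.03, 2.14 and 2.04 with the control siRNA. It was highest in mouse 3 in both groups but not set apart in mouse 1, with a mouse range of 0.16 (adjusted p = 0.254, limma's F test) and a siRNA difference of 0.050 ± 0.067. Its other probe followed loosely (r = 0.43).

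From lanosterol to cholesterol, Nsdhl takes part in removing methyl groups from the sterol rings (probe at chrX:70202803-70202862, mm9). Its level was 0.63, 0.78, 0.93 and 0.84 in mice 1 to 4 with the Y RNA siRNA, against 0.70, 0.97, 1.12 and 0.92 with the control siRNA. It was lower with the Y RNA siRNA in 4 of 4 mice, with a difference of -0.13 ± 0.10 (SE), and the groups overlapped (adjusted p = 1.00 in limma without a block, 0.496 with the mouse as a fixed block and 0.557 as a random block). Its dimmer probe did not show it, with a siRNA difference of 0.035 and r of 0.31 to the brighter one. Sc5d, a sterol desaturase, had 3.09, 3.37, 3.50 and 3.38 with the Y RNA siRNA, against 2.89, 3.35, 3.38 and 3.20 with the control siRNA. It was higher with the Y RNA siRNA in 4 of 4 mice, by 0.13 ± 0.13 (SE), with an adjusted p of 1.00 in limma without a block, 0.517 with the mouse as a fixed block and 0.638 as a random one. Mouse 1 was lowest in both groups and the mouse means spanned 0.45.

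Hsd17b7, the keto-reductase of the same demethylation complex, had -1.11, -0.97, -0.62 and -0.94 in mice 1 to 4 with the Y RNA siRNA, against -1.19, -0.85, -0.63 and -0.96 with the control siRNA. The siRNA difference was -0.0037 ± 0.14 (SE), while the mouse means spanned 0.52 and the second kept probe followed (r = 0.925). Dhcr7, the reductase that makes cholesterol from its immediate precursor, had 0.63, 0.84, 0.94 and 0.90 with the Y RNA siRNA, against 0.64, 0.87, 0.79 and 0.88 with the control siRNA. Both mouse 1 arrays were the lowest of Dhcr7, and its siRNA difference was 0.035 ± 0.088. The remaining 4 enzymes, the demethylase Cyp51, the reductase Tm7sf2, the methyl oxidase Sc4mol and the isomerase Ebp, had siRNA differences of -0.019, -0.019, 0.022 and -0.021. Cyp51, Tm7sf2 and Sc4mol were lowest in mouse 1, with mouse ranges of 0.24, 0.31 and 0.29, while Ebp varied by 0.14 and was highest in mouse 4.

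Among the 6 genes that control the route the median range between mice was 0.14, against 0.29 among the 19 enzymes and 0.25 over all genes, a difference that was not tested. Srebf2, which encodes SREBP-2, had 3.48, 3.53, 3.52 and 3.45 in mice 1 to 4 with the Y RNA siRNA, against 3.50, 3.62, 3.52 and 3.62 with the control siRNA. Its siRNA difference was -0.070 ± 0.052 (SE, adjusted p = 1.00 in limma), 0.020 at its other probe, and its mouse means spanned 0.086. Insig1, an SREBP-2 target whose protein retains SCAP, had 0.55, 0.24, 0.28 and 0.34 with the Y RNA siRNA, against 0.46, 0.25, 0.33 and 0.14 with the control siRNA. The mouse 1 array was the highest of each group, opposite to the enzymes, and the range between mice was 0.26 (adjusted p = 0.177, limma's F test). Insig2, the second retention protein, had 2.43, 2.56, 2.57 and 2.55 with the Y RNA siRNA, against 2.35, 2.49, 2.41 and 2.56 with the control siRNA, a difference of 0.075 ± 0.064. Its mouse 1 array was the lowest of each group, the reverse of Insig1, and its other probe did not follow (r = -0.29).

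Mbtps1, the protease that makes the first cut in SREBP-2, had 4.08, 4.01, 3.96 and 4.01 in mice 1 to 4 with the Y RNA siRNA, against 4.08, 3.94, 3.93 and 4.04 with the control siRNA. Both mouse 1 arrays of Mbtps1 were the highest of the 8, within a range between mice of 0.14. Its other probe did not follow (r = -0.053), with a siRNA difference of -0.11 against 0.016 at the brighter one. Mbtps2, the protease of the second cut, had -1.67, -1.58, -1.63 and -1.67 with the Y RNA siRNA, against -1.68, -1.49, -1.52 and -1.45 with the control siRNA. Its difference of -0.11 ± 0.063 (SE) had an adjusted p of 1.00 in limma, and its other 2 probes gave 0.14 and 0.056, so the direction rests on the probe. Scap, the escort itself, had a siRNA difference of 0.022 and a mouse range of 0.12.

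In transport and storage, Npc1 moves cholesterol out through the lysosomal membrane and was the one member whose groups did not overlap. Its level was 2.93, 3.02, 3.03 and 3.07 in mice 1 to 4 with the Y RNA siRNA, against 2.87, 2.90, 2.89 and 2.92 with the control siRNA, or 3.01 ± 0.060 and 2.90 ± 0.023 (SD, n = 4 each). The difference was 0.12 ± 0.050 (SE, 95% interval 0.0028 to 0.23) and was positive in 4 of 4 mice, at 0.063, 0.13, 0.14 and 0.15. The adjusted p was 1.00 in limma without a block, 0.469 with the mouse as a fixed block and 0.314 as a random block. Over the 29 alternatives run, which leave out each array and mouse, keep to 1 slide row or rescale the arrays, the difference of Npc1 lay between 0.092 and 0.15, and its adjusted p in limma did not fall below 0.314. Npc2, the carrier inside the lysosome that hands cholesterol to NPC1, had 6.96, 6.95, 7.02 and 7.08 with the Y RNA siRNA, against 6.84, 6.94, 6.99 and 7.14 with the control siRNA. The groups of Npc2 overlapped, with a difference of 0.028 ± 0.074.

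Stard4, which carries sterol through the cytosol, had 2.51, 2.55, 2.89 and 2.47 in mice 1 to 4 with the Y RNA siRNA, against 2.47, 2.61, 2.95 and 2.32 with the control siRNA. It was highest in mouse 3 and lowest in mouse 4 in both groups, and its mouse means spanned 0.53. The siRNA difference was 0.014 ± 0.15 (SE) and its other probe followed over the 8 arrays (r = 0.885). Soat1, which esterifies cholesterol for storage, had 1.96, 1.66, 1.64 and 1.79 with the Y RNA siRNA, against 1.94, 1.76, 1.74 and 1.88 with the control siRNA. Both mouse 1 arrays were the highest of Soat1, and the siRNA difference was -0.069 ± 0.086. Nceh1, a cholesteryl ester hydrolase, was the steadiest member, between 6.23 and 6.29 on the Y RNA siRNA arrays and between 6.24 and 6.27 on the control siRNA arrays.

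**Figure D4:**
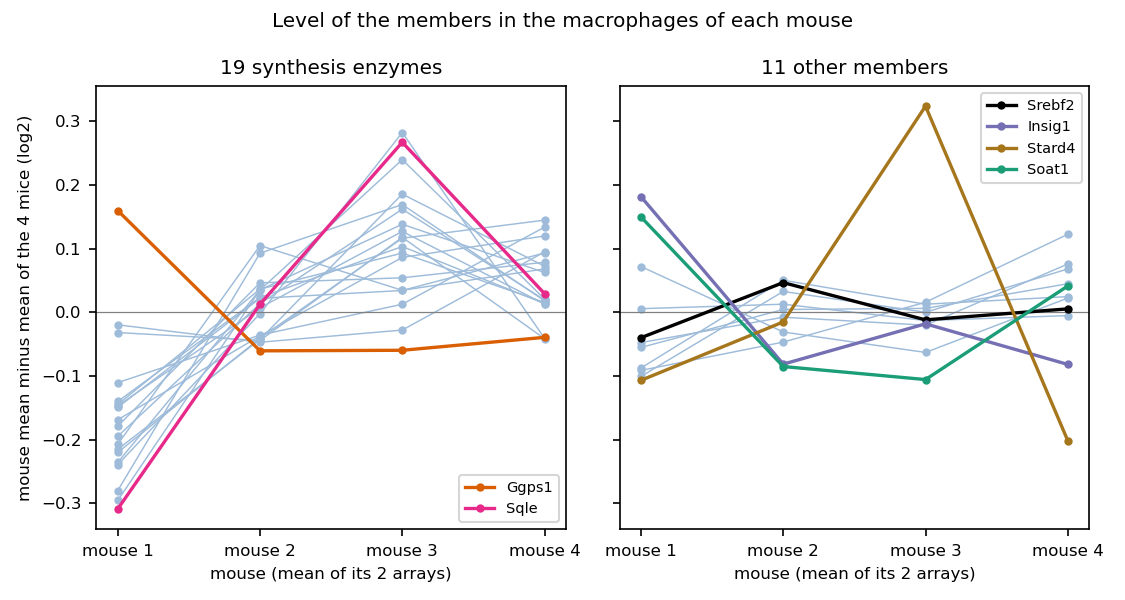
Mean level of each member over the 2 arrays of a mouse, minus its mean over the 4 mice (log2), for the 19 synthesis enzymes (left) and the 11 other members (right); each line is a gene and coloured lines are named. Most enzymes lie lowest in mouse 1 and Sqle spans the widest range. Ggps1 (at 1 of its 3 probes), Insig1 and Soat1 are highest in mouse 1, and Stard4 peaks in mouse 3.

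How far the members moved together was described by Pearson's r over the 8 arrays, after the mean of each siRNA group was subtracted. The 8 arrays come from 4 mice, so r carries no p here. Among the 19 synthesis enzymes the median r was 0.70 over 171 pairs, of which 147 were positive. Among the 11 other members it was -0.052 over 55 pairs, and between enzymes and other members 0.23 over 209 pairs. Over all pairs of the genes tested the median was 0.012 and 50.7% were positive. The closest pairs were Idi1 with Sqle (r = 0.995), Fdps with Sqle (0.992) and Fdps with Nsdhl (0.984).

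Against the mean of the other synthesis enzymes, r was 0.98 for Mvk, 0.97 for Fdps, 0.96 for Sqle, Lss and Nsdhl, and 0.95 for Idi1. Ebp (0.15), Mvd (0.47) and Fdft1 (0.54) followed least, and Ggps1 was opposite (-0.90, at 1 of its 3 probes). Outside synthesis, Npc1 (0.71) and Insig2 (0.70, at its brighter probe) followed the enzymes most closely, while Srebf2 had 0.33. Mbtps1 (-0.83, at its brighter probe), Soat1 (-0.79) and Insig1 (-0.74) ran against the enzymes. A tight r to this mean was not rare: 5.69% of the other genes tested had r above 0.9 and 5.31% had r below -0.9.

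Much of the joint movement lay between mouse 1 and the rest. Without both arrays of mouse 1 the median r among the enzymes was 0.23, and without mouse 2, 3 or 4 it was 0.80, 0.73 or 0.82. With mouse means subtracted as well as group means it was 0.089. It lay between 0.68 and 0.74 under the other scalings, the deposited table and the mean of a gene's probes. The low position of mouse 1 did not turn on the scaling either: the enzymes' median deviation there was -0.17 to -0.19 under normexp, quantile and median normalization, the deposited table and the mean of probes.

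**Figure D5:**
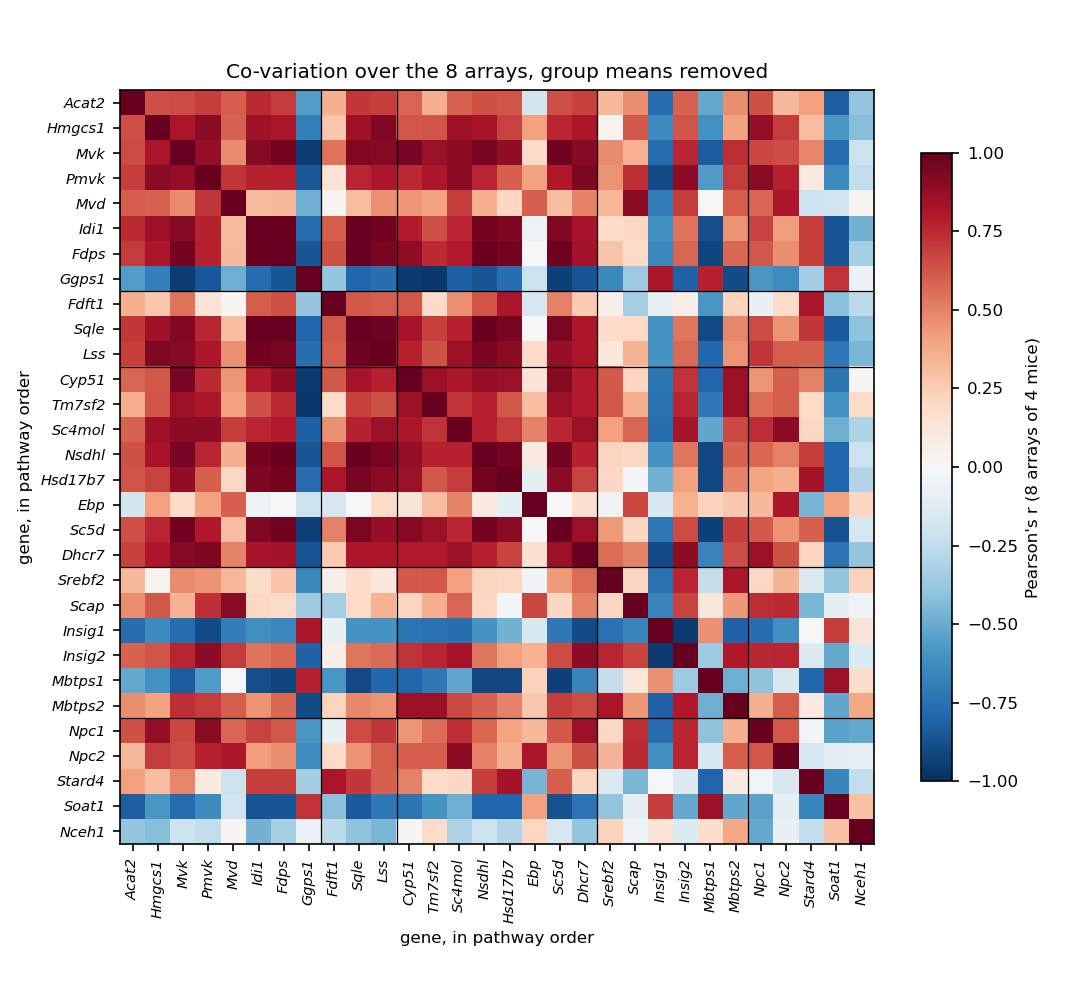
Pearson's r between each pair of the 30 members over the 8 arrays of 4 mice, with siRNA group means subtracted; genes run in pathway order on both axes and lines separate the steps. The block of synthesis enzymes is mostly red (median r 0.70), with Ggps1 (at 1 of its 3 probes) blue against it and Ebp pale. Insig1, Mbtps1 (at its brighter probe) and Soat1 are blue against most enzymes.

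Markers of other cells also differed in mouse 1. The summed level of the 5 fibroblast markers, of which 3 were above background on all 8 arrays and Pdgfra on none, was 0.095 with the Y RNA siRNA and -0.34 with the control siRNA in mouse 1. In the other mice it ran from 0.81 to 1.54 with the Y RNA siRNA and from 0.89 to 1.42 with the control siRNA. The summed level of 7 neutrophil markers, of which 4 were above background on all 8 arrays and Ngp on none, was likewise lowest in mouse 1, at 2.18 with the Y RNA siRNA and 2.04 with the control siRNA. In the other mice the neutrophil sum was 2.42 to 2.59 with the Y RNA siRNA and 2.42 to 2.65 with the control siRNA. Elane, the brightest marker, averaged 1.96 with the Y RNA siRNA and 1.91 with the control siRNA, and so makes up most of this sum. In mouse 1 the 4 markers above background deviated from their own means by -0.13 (Elane), -0.66 (S100a8), -1.18 (S100a9) and -0.053 (Camp). The part of these cells, of the lower 75th percentile of mouse 1, or of anything else that differed between the cultures, in the differences between mice was not tested. Fewer cells of a type and less RNA per cell cannot be told apart in these bulk samples. The macrophage sum ran from 10.5 to 10.8 with the Y RNA siRNA and from 10.6 to 10.8 with the control siRNA, and it was highest in mouse 1 in both groups. Mertk (-0.094), Mrc1 (-0.016) and Cd68 (-0.0092) lay below their own means in mouse 1, the other macrophage markers above, by 0.13 (Emr1) to 0.30 (Cd14). The mast cell and basophil sum of mouse 1 was 0.23 with the Y RNA siRNA, against -1.20 to -0.95 in the other mice. With the control siRNA it was -0.83, within their -1.45 to -0.48. Of its markers only Tpsb2 was above background. The dendritic cell sum of mouse 1 was 6.59 with the Y RNA siRNA, above the 6.37 to 6.48 of the other mice. With the control siRNA it was 6.58, within their 6.48 to 6.59. Of the 5 dendritic cell markers, only Siglech was above background on all 8 arrays, and Flt3 and Xcr1 were on none. The dendritic cell sum is thus nearly the level of Siglech alone, which averaged 6.47 with the Y RNA siRNA and 6.54 with the control siRNA.

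The wider pathway was followed in 4 lists of other genes. Of 15 genes of fatty acid synthesis that SREBP proteins also control, 0 had an adjusted p under 0.05 for the siRNA, and 7 had a higher and 8 a lower mean. Between mice the same list held genes that differed: 5 of 15 (Acaca, Fasn, Scd1, Scd2 and Fads2) had an adjusted p under 0.05 in limma's F test, against 4.72% of all genes, and 6 of 15 had r above 0.9 to the mean of the cholesterol synthesis enzymes, against 5.69% of other genes. Scd1, the stearoyl-CoA desaturase, had -4.68, -1.41, -0.91 and -1.04 in mice 1 to 4 with the Y RNA siRNA, against -5.60, -1.56, -1.0 and -1.09 with the control siRNA. It is in both of these counts (adjusted p = 0.00717, limma's F test, and r = 0.96). Both values use levels of mouse 1 that were not well above background, so they are no sound measure for Scd1. Scd1 was not well above background on either array of mouse 1 and was on the other 6, so its level was at least 11.4-fold higher in mouse 3 than in mouse 1, measured against the lowest signal well above background on the arrays of mouse 1. Acaca, acetyl-CoA carboxylase, had 2.56, 2.96, 3.06 and 3.01 with the Y RNA siRNA, against 2.59, 2.98, 3.04 and 2.99 with the control siRNA, and ran with the sterol enzymes (r = 0.97). Fads2, a fatty acid desaturase, spanned 1.98 between mice (adjusted p = 0.0144, limma's F test).

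Of 8 genes of the sterol receptor LXR and sterol efflux, 7 had a lower mean with the Y RNA siRNA, as had 9194 of all 19259 genes. The median difference of the 8 was -0.10, and 0 of 8 had an adjusted p under 0.05. Whether the list moved as a set was not tested. Scarb1, the lipoprotein receptor SR-BI, had 2.52, 2.66, 2.66 and 2.53 in mice 1 to 4 with the Y RNA siRNA, against 2.71, 2.85, 2.74 and 2.70 with the control siRNA, a difference of -0.16 ± 0.061 (SE, adjusted p = 1.00 in limma). All 4 Y RNA siRNA arrays of Scarb1 lay below all 4 control siRNA arrays, and the groups likewise did not overlap for 2.43% of all genes. Nr1h3, which encodes the receptor LXR alpha, differed between mice (range 0.87, adjusted p = 0.0129, limma's F test) and ran with the synthesis enzymes (r = 0.97). The exporter Abcg1 differed between mice as well (range 0.57, adjusted p = 0.0401 in the same limma test). Of all genes, 4.72% passed that test.

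Of 13 other enzymes that use farnesyl or geranylgeranyl units, 0 passed for the siRNA and 0 between mice, against 4.72% of all genes between mice. Nus1, a subunit of the enzyme that makes dolichol precursors, had the closest course to the synthesis enzymes (r = 0.97). Of 18 tested genes of sterol sensing, degradation and transfer (Idi2 of the 19 listed did not pass the filter on dim probes), 0 passed for the siRNA and 2, Gramd1b and Cyp27a1, passed between mice, where the share over all genes was again 4.72%. Erlin2, a membrane protein of the endoplasmic reticulum that helps degrade sterol sensors, had 1.94, 2.08, 1.96 and 2.00 with the Y RNA siRNA, against 2.03, 2.17, 2.13 and 2.19 with the control siRNA. Its difference of -0.14 ± 0.059 (SE) had the same sign in 4 of 4 mice and did not pass (adjusted p = 1.00 in limma).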

How the data were processed

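RNA of 8 macrophage cultures (0.2 µg each, labelled with Cy3) was hybridised to 1-colour Agilent arrays. The deposited scanner files hold intensity per spot from Agilent Feature Extraction 10.7.3.1, background-subtracted and not normalized between arrays, per the file headers, with probe positions on mm9. The value table that the authors deposited is in log2 units of unstated normalization (column medians 6.26 to 6.27, common maximum 18.6). It followed the log2 raw median signal most closely (r of at least 0.9998) and served only as an alternative.

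Each array has 62976 spots, of which 3671 controls were left out. Values are log2 processed signal minus the array's 75th percentile, averaged per probe. A probe was kept if 4 or more of the 8 arrays had it well above background (26820 of 55681), less 46 with an outlier spot, and the brightest probe stood for a gene, giving 19259 genes. Between 48.7% and 50.7% of an array's spots were well above background, and the number of arrays limits the precision. Symbols came from a RefSeq table for GRCm38.p6 by accession.

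The siRNA groups were compared by lmFit and eBayes of limma 3.58.1 (R 4.3.3; two-sided, threshold 0.05, Benjamini-Hochberg over all genes), and the mice by limma's F test. The replicate numbers stand for mice in the series design, and same-numbered arrays correlated after subtracting group means (r = 0.618, 0.155, 0.580 and 0.285), so the numbers pair the samples. Members described by array were, per step, the 3 with the smallest unadjusted p for the siRNA and for the mice. Members and lists were chosen with earlier results of these data known. The scripts were tested on simulated data. Alternatives were the mouse as fixed or random block, slide row, normexp, quantile and median normalization, the deposited table, other probe filters, the mean of probes, array weights and leaving out each array or mouse.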

Additional observations from a re-analysis of the deposited data

Results flagged for a closer look

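In 5 of the 60 sets of 4 arrays (30 members in 2 groups), 1 array stood apart from the other 3 by Dixon's criterion, where chance would give about 3. All 5 were arrays of mouse 1. On the control siRNA array of mouse 1, Mvk was lowest at 3.39, Cyp51 lowest at 0.0385 and Nceh1 lowest at 6.24, while Ggps1 was highest at 1.84. On the Y RNA siRNA array of mouse 1, Insig2 was lowest at 2.43.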

How the results depend on the processing

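The siRNA result held under the alternatives run: 0 of 30 members were called under each of the 29. With the replicate block, which pairs the 2 arrays of a mouse, the members' median difference was 0.0080 and 0 members were called, and it changed no other call of a member. The count of all genes called for the siRNA was 0, and 11 with the random replicate block and 1 with array weights. The members' median difference of 0.0080 became 0.038 with median centring, and ran from -0.030 (without control siRNA replicate 1) to 0.042 (without Y RNA siRNA replicate 1) when 1 array or mouse was left out. The signs of small differences turned: Dhcr7 was -0.021 within slide row 1, Sqle 0.027 and Npc2 -0.010 within slide row 2, Npc2 -0.011 in the deposited table and Mbtps2 0.030 as the mean of its probes. Leaving out 1 array or mouse, the differences ran from -0.13 to 0.010 for Acat2, -0.13 to 0.011 for Lss, -0.14 to 0.070 for Sqle, -0.018 to 0.10 for Dhcr7 and -0.018 to 0.083 for Npc2. Leaving out a mouse within the fit that has the mouse as a fixed block was added after seeing the data, and there Npc2 was -0.0034 without mouse 1 and Dhcr7 -0.0050 without mouse 3. The count of members called between mice, 0, became 10 with normexp, 1 with quantile normalization, 3 with median centring, 3 with the deposited table, 4 with probes above background on all 8 arrays and 6 with array weights, and ran from 0 to 3 (without mouse 2) when a mouse was left out. For all genes that count was 909, and it became 3313 with normexp, 1860 with the deposited table, 173 with no filter and 1870 with array weights, and ran from 2 (without mouse 1) to 1223 (without mouse 2). The co-variation of the enzymes (median r 0.70) ran from 0.23 without mouse 1 to 0.82 without mouse 4 and was 0.089 with mouse means removed, all chosen after seeing the data. The cause of these changes was not tested. With 4 arrays a group, differences under about 1.25-fold could not be bounded for 9 of the 30 members.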
